A study of Macaca fascicularis with 64 samples.

Results

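Muscle of cynomolgus monkey (Macaca fascicularis) fetuses at gestation month 4 was compared with muscle at gestation month 2. The comparison rests on 4 of the 64 RNA sequencing libraries of the series, 2 from month 4 and 2 from month 2, which were picked by the tissue and stage in their labels with no measured value. All 4 are wild type. The series was made to study loss of SIRT6, a nuclear deacetylase of the sirtuin family, in newborn monkeys, and the fetal libraries carry no mutation and no treatment. Fetal brain of the same months, also wild type with 2 libraries a month, served to test whether a change was particular to muscle, and newborn muscle of 2 SIRT6-/- and 2 wild-type animals served for levels alone. The labels name neither the anatomical muscle nor the number of fetuses, so the p-values measure only the spread between these libraries, which may be technical.

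Skeletal muscle fibres form when myoblasts, held back from differentiation while they divide, leave the cell cycle and fuse into multinucleated tubes that build sarcomeres. Early fibres are made with embryonic and cardiac versions of the contractile proteins, and the genes for these are later shut down while perinatal, slow and fast adult versions take over. Over the same period the triad, the membrane junction that couples excitation to calcium release, is assembled, fuel use shifts towards glycogen and fatty acids, and vessels, nerves and connective tissue grow between the fibres. In whole tissue, fewer cells of a type and less RNA per cell cannot be told apart.

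Expression is given as FPKM, a level scaled to transcript length and to library size, as the authors deposited it, and pairs of values are in the order library 1, library 2. The FPKM of a library summed to 420828 and 469642 in month 4 and to 553069 and 535350.0 in month 2, and 11683 to 12636 genes a library reached 1 FPKM. The fibre genes that define skeletal muscle were high in every library, with ACTA1, skeletal actin, at 16933 and 30897 FPKM in month 4 muscle, against 10442 and 9128 FPKM in month 2 muscle, and CKM, muscle creatine kinase, at 4479 and 8251 FPKM in month 4 muscle, against 2025 and 2085 FPKM in month 2 muscle. Of heart genes, NPPA, the atrial natriuretic peptide, was listed at 0 and 0 FPKM in month 4 muscle, against 1.76 and 0 FPKM in month 2 muscle, and MYH6, the atrial myosin heavy chain, was at 2.60 and 4.32 FPKM in month 4 muscle, against 2.59 and 1.98 FPKM in month 2 muscle. The other heart markers chosen, TNNI3 and MYBPC3, are not reported here. Other genes of heart muscle that early skeletal fibres also use, ACTC1, TNNT2 and MYL4, were abundant at month 2. Whether any heart tissue was present was not tested. The month 4 libraries resembled each other less (Pearson r of 0.969 over genes) than the month 2 libraries did (0.988), and r between libraries of different months was 0.873 to 0.906. Month 4 library 1 stood apart in genes of smooth muscle, elastic tissue and skin: ELN, elastin, had 761 and 39.5 FPKM in the month 4 libraries, MYH11, smooth muscle myosin, 63.2 and 6.57 FPKM, ACTG2, smooth muscle gamma actin, 205 and 9.24 FPKM, and KRT5, a keratin of surface epithelium, 22.4 and 0.0549 FPKM. Month 4 library 2 was in turn higher in genes of fast fibres, with ACTN3, the fast-fibre alpha-actinin, at 234 and 722 FPKM in the month 4 libraries. Results that rest on one of these libraries are given with and without it.

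A wide programme separated the months. Of 12352 genes with a mean of 1 FPKM or more, 2753 (22.3%) rose and 1934 (15.7%) fell at month 4 at an adjusted p under 0.05, which is 37.9% in all, and these shares are the background for every count below. The log2 change is limma's estimate on log2(FPKM + 1), printed with its standard error (SE, n = 2 libraries a month) and given relative to the median gene, whose own change was 0.16, while the adjusted p tests the change before that subtraction. Among the genes that passed, 920 were higher and 1137 lower by 1 or more on this scale relative to the median gene, and 31 and 29 by 3 or more. The split of the calls moves with scaling: 58.7% rose as deposited, 46.8% under quantile normalisation, 47.8% under median ratio scaling, 78.4% with each library's FPKM brought to an equal sum and 45.3% with no level filter. With no level filter only 574 genes were called, and most list counts fell steeply, as given in the last section. The number called was 1648 without month 2 library 1 and 1455 without month 2 library 2, so list counts fell with it, and it was 4578 without month 4 library 1 and 6713 without month 4 library 2.

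The myosin heavy chains, the motor proteins of the thick filament, moved in both directions: of 11 tested, 6 rose and 3 fell, against 22.3% and 15.7% of all genes. MYH1, the fast 2X chain, had 516 and 1082 FPKM in month 4 muscle, against 0.187 and 0.196 FPKM in month 2 muscle, and was barely detected at the earlier stage (log2 change 9.13, SE 0.29, adjusted p = 9.36e-08). MYH2, the fast 2A chain, had 557 and 852 FPKM in month 4 muscle, against 2.80 and 2.58 FPKM in month 2 muscle (log2 change 7.38, SE 0.22, adjusted p = 5.68e-08). Both rose, and in each case the month 4 libraries lay far above both month 2 libraries. MYH4, the fast 2B chain, had 27.8 and 378 FPKM in month 4 muscle, against 0.232 and 0.268 FPKM in month 2 muscle (log2 change 6.22, SE 0.85, adjusted p = 4.90e-04), so that its month 4 libraries differed from each other widely while both exceeded month 2. Before subtraction of the median its log2 change was 6.39, against 8.24 without month 4 library 1 and 4.53 without month 4 library 2. MYH13, the chain of extraocular and laryngeal muscle, was found at a low level in month 4, with 3.41 and 9.46 FPKM in month 4 muscle, against 0.136 and 0.0708 FPKM in month 2 muscle (log2 change 2.46, SE 0.36, adjusted p = 5.95e-04).

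The developmental chains moved the other way. MYH3, the embryonic chain, had 993 and 696 FPKM in month 4 muscle, against 2438 and 2251 FPKM in month 2 muscle (log2 change -1.66, SE 0.23, adjusted p = 0.00108). MYH8, the perinatal chain, had 173 and 165 FPKM in month 4 muscle, against 330.5 and 311 FPKM in month 2 muscle (log2 change -1.09, SE 0.17, adjusted p = 0.00280). Both fell with no overlap between the months, yet on this per-length scale the level of MYH3 in month 4 overlapped those of MYH1 and MYH2. MYH7B, a slow and cardiac family member, had 31.1 and 60.02 FPKM in month 4 muscle, against 91.8 and 84.2 FPKM in month 2 muscle (log2 change -1.17, SE 0.27, adjusted p = 0.0153), and also fell. Fast chains share long stretches of sequence, so how reads were split between MYH1, MYH2, MYH4 and MYH8 is uncertain. The non-muscle chain MYH9 rose (65.8 and 51.6 FPKM in month 4 muscle, against 33.7 and 32.1 FPKM in month 2 muscle; log2 change 0.64), while its relative MYH10 did not pass (22.1 and 8.60 FPKM in month 4 muscle, against 10.4 and 9.66 FPKM in month 2 muscle). MYH7, the slow beta chain, was not analysed here. The myosin heavy chains that rose and fell numbered 5 and 0 without month 2 library 1, 5 and 1 without month 2 library 2 and 5 and 1 under quantile normalisation. MYH3 lost its call without month 2 library 1 (adjusted p = 0.0546) and under quantile normalisation (adjusted p = 0.0964). MYH8 lost its call without month 2 library 1 (adjusted p = 0.0781), without month 2 library 2 (adjusted p = 0.0614) and in a fit of all 8 fetal libraries (adjusted p = 0.0849). MYH7B lost its call without month 2 library 1 (adjusted p = 0.102), without month 2 library 2 (adjusted p = 0.0767) and under quantile normalisation (adjusted p = 0.0544). MYH7B had a log2 change of -0.61 without month 4 library 1. MYH6 did not pass, with a log2 change of 0.26, against 0.64 without month 4 library 1. MYH9 lost its call without month 2 library 1 (adjusted p = 0.0758) and without month 2 library 2 (adjusted p = 0.108). MYH10 passed without month 4 library 2 as higher at month 4 (adjusted p = 0.00187).

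**Figure D1:**
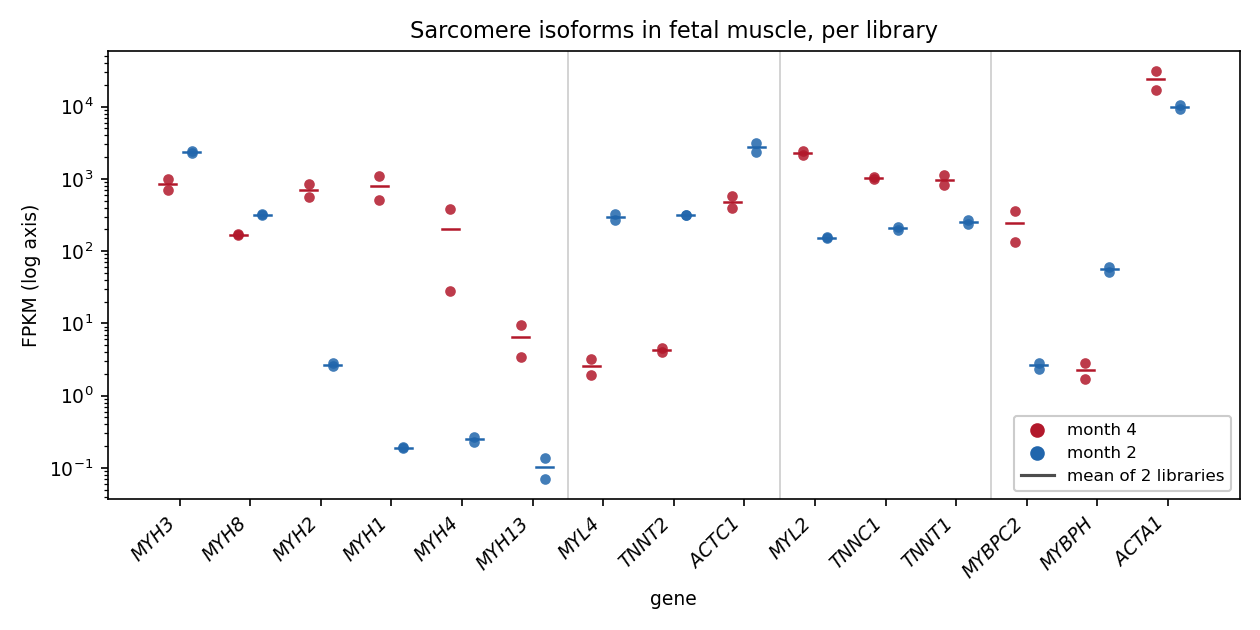
FPKM on a log axis of sarcomere genes in each fetal muscle library, month 4 in red and month 2 in blue, with a bar at the mean of the 2 libraries. MYH1, MYH2, MYH4 and MYBPC2 are higher at month 4 and MYL4, TNNT2 and MYBPH lower, each with no overlap, and MYH3 stays at 993 and 696 FPKM in month 4.

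Several early and cardiac isoforms of the thin filament and the light chains fell. MYL4, the embryonic and atrial essential light chain, had 3.23 and 1.96 FPKM in month 4 muscle, against 324 and 272 FPKM in month 2 muscle (log2 change -6.56, SE 0.21, adjusted p = 1.17e-07). TNNT2, cardiac troponin T, had 4.05 and 4.61 FPKM in month 4 muscle, against 320.1 and 318 FPKM in month 2 muscle (log2 change -6.08, SE 0.17, adjusted p = 5.68e-08). Both were abundant at month 2 and nearly gone at month 4. ACTC1, cardiac actin, had 572 and 394 FPKM in month 4 muscle, against 3093 and 2340.1 FPKM in month 2 muscle (log2 change -2.66, SE 0.24, adjusted p = 1.04e-04) and remained well above MYL4 and TNNT2. MYL5, a regulatory light chain outside this list, had 0.356 and 0.469 FPKM in month 4 muscle, against 35.5 and 24.5 FPKM in month 2 muscle (log2 change -4.60, SE 0.23, adjusted p = 3.19e-06). Of 9 early and cardiac isoforms tested, 1 rose and 4 fell, with a median log2 change of -0.70. CKB, the brain-type creatine kinase of immature muscle, also fell (47.6 and 19.99 FPKM in month 4 muscle, against 70.5 and 64.0 FPKM in month 2 muscle), and ACTN2, the alpha-actinin of all fibres, was the one that rose (457 and 471 FPKM in month 4 muscle, against 259 and 225 FPKM in month 2 muscle). The early and cardiac isoforms that rose and fell numbered 3 and 4 without month 4 library 2. The early and cardiac isoforms had a median of -0.20 without month 2 library 1 and -1.20 without month 2 library 2. CKB lost its call without month 2 library 1 (adjusted p = 0.117), without month 2 library 2 (adjusted p = 0.0880), under quantile normalisation (adjusted p = 0.0668) and with equal library sums (adjusted p = 0.0612). CKB had a log2 change of -1.76 without month 4 library 1 and -0.74 without month 4 library 2. ACTN2 lost its call without month 2 library 1 (adjusted p = 0.0597) and without month 2 library 2 (adjusted p = 0.129).

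Slow-fibre genes rose as a group: of 13 tested, 10 rose and 1 fell, with a median log2 change of 1.03. MYL2, the slow regulatory light chain, had 2421 and 2131 FPKM in month 4 muscle, against 154 and 154 FPKM in month 2 muscle (log2 change 3.71, SE 0.19, adjusted p = 2.03e-06). MB, myoglobin, the oxygen store of oxidative fibres, had 1740.3 and 2372 FPKM in month 4 muscle, against 272 and 284 FPKM in month 2 muscle (log2 change 2.70, SE 0.21, adjusted p = 2.28e-05). TNNC1, slow troponin C, had 989 and 1047 FPKM in month 4 muscle, against 218 and 197 FPKM in month 2 muscle (log2 change 2.13). TNNT1, slow troponin T, had 820.3 and 1130.2 FPKM in month 4 muscle, against 270.4 and 235 FPKM in month 2 muscle (log2 change 1.76). In each of these genes both month 4 libraries lay above both month 2 libraries. TPM3, ANKRD2, MYL3, MYBPC1, MYOM3 and CSRP3 also rose, with log2 changes of 1.48, 1.41, 1.03, 0.75, 0.62 and 0.49. TNNI1, slow troponin I, which early fibres of all kinds use, did not pass (1127 and 1427 FPKM in month 4 muscle, against 1691 and 1548 FPKM in month 2 muscle), and MYOZ2, a Z-disc protein that binds calcineurin, fell (114 and 90.9 FPKM in month 4 muscle, against 189 and 152 FPKM in month 2 muscle). MYBPC1 lost its call without month 2 library 1 (adjusted p = 0.0791) and without month 2 library 2 (adjusted p = 0.193). MYOM3 lost its call without month 2 library 1 (adjusted p = 0.0723), without month 2 library 2 (adjusted p = 0.105) and under median ratio scaling (adjusted p = 0.0517). CSRP3 lost its call without month 2 library 1 (adjusted p = 0.154), without month 2 library 2 (adjusted p = 0.287) and under median ratio scaling (adjusted p = 0.134). TNNI1 passed without month 4 library 2 as lower at month 4 (adjusted p = 0.0168) and under quantile normalisation as higher at month 4 (adjusted p = 0.0224). MYOZ2 lost its call without month 2 library 1 (adjusted p = 0.219), without month 2 library 2 (adjusted p = 0.0769), under quantile normalisation (adjusted p = 0.0603) and with equal library sums (adjusted p = 0.0883).

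The fast-fibre genes were split: of 14 tested, 7 rose and 1 fell, with a median log2 change of 0.43. MYBPC2, fast myosin-binding protein C, had 132 and 364 FPKM in month 4 muscle, against 2.37 and 2.86 FPKM in month 2 muscle (log2 change 5.77, SE 0.37, adjusted p = 8.57e-06). MYBPH, its short relative, had 1.72 and 2.79 FPKM in month 4 muscle, against 51.8 and 60.9 FPKM in month 2 muscle (log2 change -4.32, SE 0.21, adjusted p = 3.19e-06). These relatives moved in opposite directions, MYBPC2 up and MYBPH down. MYOZ3, a fast-fibre calcineurin-binding protein, had 16.7 and 31.5 FPKM in month 4 muscle, against 0.647 and 1.23 FPKM in month 2 muscle (log2 change 3.48, SE 0.29, adjusted p = 3.68e-05). ACTN3 had 234 and 722 FPKM in month 4 muscle, against 88.9 and 81.5 FPKM in month 2 muscle (log2 change 2.095, SE 0.40, adjusted p = 0.00223). MYOM2, MYLK2, MYOZ1 and ACTA1 also rose, with log2 changes of 1.06, 1.38, 1.05 and 1.06. ACTA1 is counted in this list, although above it served to define skeletal muscle as a whole and not fast fibres. The fast troponins and the essential light chain MYL1 did not pass, and their month 4 libraries lay on either side of month 2: TNNC2 had 6261 and 11212 FPKM in month 4 muscle, against 8140.0 and 8924 FPKM in month 2 muscle. TNNI2 had 2788 and 5197 FPKM in month 4 muscle, against 4675 and 5013 FPKM in month 2 muscle. TNNT3 had 2577 and 4862 FPKM in month 4 muscle, against 4298 and 3877 FPKM in month 2 muscle and MYL1 had 5495 and 9152 FPKM in month 4 muscle, against 8163 and 7445 FPKM in month 2 muscle. MYLPF, the fast regulatory light chain, had 8455 and 13942 FPKM in month 4 muscle, against 14663 and 14103 FPKM in month 2 muscle, both month 4 libraries below month 2. TPM1, alpha-tropomyosin, had 1331 and 2282 FPKM in month 4 muscle, against 2129.6 and 1840.1 FPKM in month 2 muscle. Neither passed. The fast-fibre genes that rose and fell numbered 7 and 7 without month 4 library 2. The fast-fibre genes had a median of 0.79 without month 4 library 1, -0.0778 without month 4 library 2 and 0.82 under quantile normalisation. ACTN3 had a log2 change of 1.197 without month 4 library 2. MYOZ1 lost its call without month 2 library 1 (adjusted p = 0.0530), without month 2 library 2 (adjusted p = 0.0745) and under median ratio scaling (adjusted p = 0.0513). MYOZ1 had a log2 change of 0.56 without month 4 library 2. ACTA1 lost its call without month 2 library 1 (adjusted p = 0.383), without month 2 library 2 (adjusted p = 0.491), under median ratio scaling (adjusted p = 0.0829) and in a fit of all 8 fetal libraries (adjusted p = 0.124). ACTA1 had a log2 change of 0.54 without month 4 library 2. MYL1 passed without month 4 library 2 as lower at month 4 (adjusted p = 0.0278). TNNC2 passed without month 4 library 2 as lower at month 4 (adjusted p = 0.0445). TNNI2 passed without month 4 library 2 as lower at month 4 (adjusted p = 0.00375). TNNT3 passed without month 4 library 2 as lower at month 4 (adjusted p = 0.00839). MYLPF passed without month 4 library 2 as lower at month 4 (adjusted p = 0.00568) and under quantile normalisation as lower at month 4 (adjusted p = 0.00733). TPM1 passed without month 4 library 2 as lower at month 4 (adjusted p = 0.0159) and under quantile normalisation as higher at month 4 (adjusted p = 0.0418).

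Genes for the scaffold that aligns and anchors the sarcomere rose widely: of 35 tested, 25 rose and 1 fell, with a median log2 change of 0.86. NRAP, a nebulin-related anchoring protein of growing myofibrils, had 71.6 and 67.8 FPKM in month 4 muscle, against 0.667 and 0.459 FPKM in month 2 muscle (log2 change 5.34, SE 0.19, adjusted p = 1.44e-07), and was close to absent at month 2. FLNC, the muscle filamin that links Z-disc and membrane, had 225 and 208 FPKM in month 4 muscle, against 27.4 and 30.5 FPKM in month 2 muscle (log2 change 2.70, SE 0.17, adjusted p = 6.82e-06). SYNPO2, which bundles actin at the Z-disc, had 41.2 and 29.1 FPKM in month 4 muscle, against 2.40 and 2.32 FPKM in month 2 muscle (log2 change 3.24, SE 0.21, adjusted p = 8.58e-06). TCAP, which caps titin, had 264 and 472 FPKM in month 4 muscle, against 52.0 and 61.2 FPKM in month 2 muscle. MYOT, myotilin, had 126 and 108 FPKM in month 4 muscle, against 29.6 and 24.3 FPKM in month 2 muscle. FHL1, a LIM protein, had 1136 and 1280.1 FPKM in month 4 muscle, against 307 and 246 FPKM in month 2 muscle. In each of these genes the months did not overlap. The giant ruler proteins rose less, with a log2 change of 1.17 for NEB, nebulin, and 0.71 for TTN, titin, while DES, the desmin filament, did not pass (1287 and 1713 FPKM in month 4 muscle, against 1833 and 1813 FPKM in month 2 muscle). OBSL1, the small relative of obscurin, was the member that fell (57.2 and 78.8 FPKM in month 4 muscle, against 110.1 and 113 FPKM in month 2 muscle). The scaffold genes that rose and fell numbered 26 and 3 without month 4 library 2 and 15 and 0 without month 2 library 2. The scaffold genes had a median of 0.57 without month 4 library 2. TTN lost its call without month 2 library 1 (adjusted p = 0.0533) and without month 2 library 2 (adjusted p = 0.0725). DES passed without month 4 library 2 as lower at month 4 (adjusted p = 0.0168) and under quantile normalisation as higher at month 4 (adjusted p = 0.0241). OBSL1 lost its call without month 2 library 1 (adjusted p = 0.126), without month 2 library 2 (adjusted p = 0.153) and with equal library sums (adjusted p = 0.0634).

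Excitation-contraction coupling genes also rose, and of the calcium release channels RYR1 rose and RYR3 fell: of 32 tested, 22 rose and 3 fell, with a median log2 change of 0.69. ATP2A1, the calcium pump of fast fibres, had 712 and 1384 FPKM in month 4 muscle, against 219 and 186 FPKM in month 2 muscle (log2 change 2.13, SE 0.28, adjusted p = 3.38e-04). ATP2A2, the pump of slow fibres, had 238 and 192 FPKM in month 4 muscle, against 79.3 and 65.8 FPKM in month 2 muscle (log2 change 1.39, SE 0.19, adjusted p = 3.08e-04). JPH1 and JPH2, the junctophilins that hold the triad together, had log2 changes of 1.35 and 1.26, and SYPL2, mitsugumin 29, one of 1.56. SCN4A, the adult muscle sodium channel, had 22.4 and 23.5 FPKM in month 4 muscle, against 7.82 and 8.39 FPKM in month 2 muscle and rose. RYR1, the calcium release channel of the triad, had 96.2 and 117 FPKM in month 4 muscle, against 55.5 and 55.1 FPKM in month 2 muscle and rose (log2 change 0.76), whereas RYR3, a release channel more prominent in immature muscle, had 1.45 and 0.550 FPKM in month 4 muscle, against 3.92 and 3.91 FPKM in month 2 muscle and fell (log2 change -1.50). CACNA1H, a T-type calcium channel of fusing myoblasts, had 6.10 and 4.92 FPKM in month 4 muscle, against 50.3 and 50.4 FPKM in month 2 muscle (log2 change -3.15, SE 0.18, adjusted p = 8.29e-06) and was among the deepest falls of all genes. JSRP1, a junctional protein of the triad, also fell (109 and 175 FPKM in month 4 muscle, against 217 and 239 FPKM in month 2 muscle). PVALB, parvalbumin, the calcium buffer of fast fibres, rose with its month 4 libraries far apart (136 and 505 FPKM in month 4 muscle, against 39.0 and 37.9 FPKM in month 2 muscle). The coupling genes that rose and fell numbered 13 and 1 without month 2 library 1 and 13 and 0 without month 2 library 2. RYR1 lost its call without month 2 library 1 (adjusted p = 0.0527) and without month 2 library 2 (adjusted p = 0.0594). RYR3 lost its call without month 2 library 2 (adjusted p = 0.0501). JSRP1 lost its call without month 4 library 1 (adjusted p = 0.0573), without month 2 library 1 (adjusted p = 0.143), without month 2 library 2 (adjusted p = 0.232), under quantile normalisation (adjusted p = 0.0765), with equal library sums (adjusted p = 0.0893) and under median ratio scaling (adjusted p = 0.0595). JSRP1 had a log2 change of -0.45 without month 4 library 1. PVALB had a log2 change of 1.55 without month 4 library 2.

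Myogenic regulators and satellite cell genes moved in both directions: of 45 tested, 10 rose and 10 fell, with a median log2 change of 0.27. These counts are near the background of 22.3% and 15.7% of all genes, so the list is not set apart by them. Among those that fell were genes of fusion and adhesion, and among those that rose NFIX and MSTN. TMEM8C, the fusion protein myomaker, had 14.8 and 26.002 FPKM in month 4 muscle, against 70.8 and 71.8 FPKM in month 2 muscle (log2 change -1.97, SE 0.24, adjusted p = 4.83e-04). MYMX, its partner myomixer, had 7.42 and 13.3 FPKM in month 4 muscle, against 29.3 and 35.5 FPKM in month 2 muscle (log2 change -1.77, SE 0.25, adjusted p = 0.00117). CDH15, M-cadherin, the adhesion protein of myoblasts, had 37.0 and 48.6 FPKM in month 4 muscle, against 147 and 147 FPKM in month 2 muscle (log2 change -1.93, SE 0.19, adjusted p = 1.45e-04). FGFR4, a growth factor receptor of myoblasts, had 8.398 and 10.98 FPKM in month 4 muscle, against 42.0 and 43.2 FPKM in month 2 muscle (log2 change -2.20, SE 0.19, adjusted p = 8.12e-05). Each of these genes fell with no overlap between the months. Among the myogenic factors, MYF5 (7.24 and 6.80 FPKM in month 4 muscle, against 18.4 and 19.5 FPKM in month 2 muscle) and MYOG, myogenin (25.4 and 34.4 FPKM in month 4 muscle, against 67.5 and 63.6 FPKM in month 2 muscle), fell with log2 changes of -1.48 and -1.29, whereas MYOD1 (45.2 and 75.2 FPKM in month 4 muscle, against 55.5 and 48.5 FPKM in month 2 muscle) and MYF6 (49.8 and 60.1 FPKM in month 4 muscle, against 42.0 and 36.8 FPKM in month 2 muscle) did not pass. PAX7, the satellite cell factor, was low and did not pass (2.51 and 1.52 FPKM in month 4 muscle, against 1.13 and 1.35 FPKM in month 2 muscle). MSC, a repressor of myogenic factors, fell (14.8 and 10.9 FPKM in month 4 muscle, against 45.5 and 35.2 FPKM in month 2 muscle), as did CAV3, the muscle caveolin (72.4 and 104 FPKM in month 4 muscle, against 251 and 277 FPKM in month 2 muscle). The regulator genes that rose and fell numbered 21 and 10 without month 4 library 2, 6 and 8 without month 2 library 1, 5 and 8 without month 2 library 2, 20 and 8 with equal library sums and 6 and 12 under median ratio scaling. MYOD1 passed without month 4 library 1 as higher at month 4 (adjusted p = 0.0271). MYF6 passed without month 4 library 1 as higher at month 4 (adjusted p = 0.0178) and with equal library sums as higher at month 4 (adjusted p = 0.00536). PAX7 passed without month 4 library 2 as higher at month 4 (adjusted p = 0.0234).

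NFIX, a factor that switches on fetal muscle genes in the mouse, had 74.5 and 53.9 FPKM in month 4 muscle, against 11.05 and 11.3 FPKM in month 2 muscle (log2 change 2.24, SE 0.20, adjusted p = 4.12e-05). MSTN, myostatin, the secreted inhibitor of muscle growth, had 13.7 and 11.8 FPKM in month 4 muscle, against 0.397 and 1.10 FPKM in month 2 muscle (log2 change 2.84, SE 0.25, adjusted p = 4.33e-05). Both were low at month 2 and clearly present in both month 4 libraries. Among regulators of muscle splicing 5 rose and 2 fell of 16 tested: RBM38, MBNL1, QKI and RBM20 rose, with log2 changes of 1.28, 0.96, 1.15 and 1.01, and SRPK3, a kinase of splicing factors, fell (55.5 and 92.4 FPKM in month 4 muscle, against 179 and 175 FPKM in month 2 muscle). MBNL1 and RBM20 are known to set adult splice forms of muscle genes, but splice forms themselves were not analysed here. The splicing regulators that rose and fell numbered 8 and 2 without month 4 library 2, 2 and 1 without month 2 library 2 and 8 and 1 with equal library sums. MBNL1 lost its call without month 2 library 2 (adjusted p = 0.0656). RBM20 lost its call without month 2 library 2 (adjusted p = 0.0899).

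Neuromuscular junction genes moved in both directions: of 19 tested, 5 rose and 4 fell, with a median log2 change of -0.19. These counts too are near the background of 22.3% and 15.7%. The acetylcholine receptor is built from a fetal gamma or an adult epsilon subunit beside the alpha, beta and delta subunits. CHRNG, the fetal gamma subunit, had 19.5 and 22.7 FPKM in month 4 muscle, against 27.7 and 23.5 FPKM in month 2 muscle. CHRNE, the adult epsilon subunit, had 3.19 and 5.70 FPKM in month 4 muscle, against 2.77 and 2.81 FPKM in month 2 muscle, and neither passed. CHRNG thus stood above CHRNE in every library of both months. CHRND fell (6.46 and 7.76 FPKM in month 4 muscle, against 13.1 and 11.5 FPKM in month 2 muscle; log2 change -0.88), and CHRNA1 (17.0 and 15.4 FPKM in month 4 muscle, against 25.5 and 20.7 FPKM in month 2 muscle) and CHRNB1 (38.8 and 58.9 FPKM in month 4 muscle, against 78.5 and 64.7 FPKM in month 2 muscle) did not pass. ERBB3 and ERBB2, the receptors for neuregulin from nerve, fell with log2 changes of -1.64 and -1.27, and RAPSN, which clusters the receptor, with one of -0.95. With CHRND these are all 4 junction genes that fell. The 5 that rose are not named here, and the highest log2 change in the list was 1.12. At the membrane, 11 rose and 1 fell of 25 dystrophin-complex genes: SSPN, sarcospan, had 21.0 and 14.3 FPKM in month 4 muscle, against 4.38 and 4.01 FPKM in month 2 muscle (log2 change 1.66). LARGE, which glycosylates dystroglycan, had 10.9 and 11.8 FPKM in month 4 muscle, against 3.33 and 3.37 FPKM in month 2 muscle (log2 change 1.34). DMD, dystrophin, had 25.9 and 23.2 FPKM in month 4 muscle, against 12.96 and 12.1 FPKM in month 2 muscle (log2 change 0.75). LAMA2, the laminin chain outside the fibre, was the one that fell (11.4 and 7.83 FPKM in month 4 muscle, against 17.7 and 14.7 FPKM in month 2 muscle). The junction genes that rose and fell numbered 5 and 7 without month 4 library 2, 3 and 3 without month 2 library 1, 1 and 2 without month 2 library 2 and 5 and 2 with equal library sums. The junction genes had a median of -0.11 without month 4 library 2. The dystrophin-complex genes that rose and fell numbered 5 and 0 without month 2 library 1 and 4 and 0 without month 2 library 2. CHRNE passed without month 4 library 1 as higher at month 4 (adjusted p = 0.0162). CHRND lost its call without month 2 library 1 (adjusted p = 0.225), without month 2 library 2 (adjusted p = 0.148) and with equal library sums (adjusted p = 0.112). CHRNA1 passed without month 4 library 1 as lower at month 4 (adjusted p = 0.0467), under quantile normalisation as lower at month 4 (adjusted p = 0.0499) and under median ratio scaling as lower at month 4 (adjusted p = 0.0247). CHRNB1 passed without month 4 library 2 as lower at month 4 (adjusted p = 0.00410). RAPSN lost its call without month 2 library 2 (adjusted p = 0.208) and with equal library sums (adjusted p = 0.0573). DMD lost its call without month 2 library 2 (adjusted p = 0.0774). LAMA2 lost its call without month 4 library 2 (adjusted p = 0.0629), without month 2 library 1 (adjusted p = 0.266), without month 2 library 2 (adjusted p = 0.132), with equal library sums (adjusted p = 0.165) and in a fit of all 8 fetal libraries (adjusted p = 0.210). LAMA2 had a log2 change of -0.72 without month 4 library 2.

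**Figure D2:**
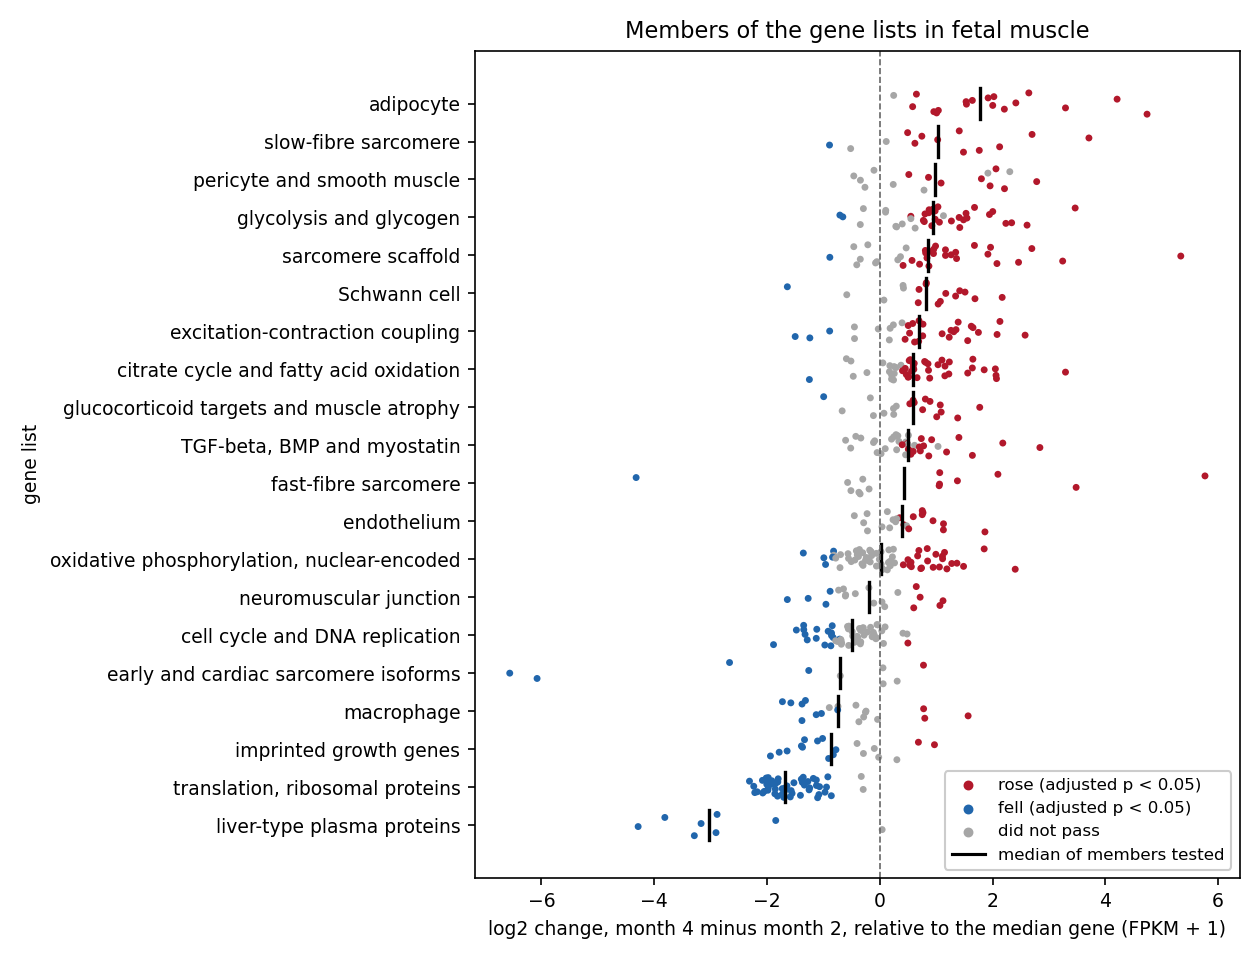
Log2 change at month 4 against month 2 of every tested member of the main gene lists, relative to the median gene, with a black bar at the list's median. Adipocyte, slow-fibre and glycolytic lists lie right of 0 (medians 1.78, 1.03 and 0.94), ribosomal proteins and liver-type plasma proteins left of it (medians -1.69 and -3.04).

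Fuel genes rose across glycolysis, glycogen and fatty acid use. Of 37 genes of glycolysis and glycogen, 25 rose and 2 fell, with a median log2 change of 0.94. PYGM, muscle glycogen phosphorylase, had 608 and 1247 FPKM in month 4 muscle, against 130.4 and 122 FPKM in month 2 muscle (log2 change 2.61, SE 0.29, adjusted p = 1.43e-04). PPP1R3A and PPP1R3C, which bring a phosphatase to glycogen, had log2 changes of 2.34 and 2.24, and PGK1 had one of 1.49. ALDOC, the aldolase better known from brain, had 28.01 and 57.9 FPKM in month 4 muscle, against 2.03 and 2.68 FPKM in month 2 muscle (log2 change 3.46, SE 0.30, adjusted p = 4.12e-05), and was the glycolytic gene with the largest log2 change. LDHA, the lactate dehydrogenase subunit of fast muscle, had 285 and 384 FPKM in month 4 muscle, against 82.0 and 70.3 FPKM in month 2 muscle, and rose, whereas LDHB, the subunit of heart, had 108 and 103 FPKM in month 4 muscle, against 159 and 148 FPKM in month 2 muscle, and fell (log2 changes 1.95 and -0.71). PFKM, muscle phosphofructokinase, had 130.1 and 170.2 FPKM in month 4 muscle, against 50.1 and 48.7 FPKM in month 2 muscle, and rose, whereas PFKL, the liver form, had 41.8 and 41.0 FPKM in month 4 muscle, against 56.2 and 60.9 FPKM in month 2 muscle, and fell (log2 changes 1.41 and -0.65). In the creatine system 6 rose and 2 fell of 11 tested: CKM rose by 1.40 and CKMT2, the mitochondrial kinase, by 1.72, while CKB had a log2 change of -1.26 and fell. The glycolytic genes that rose and fell numbered 15 and 0 without month 2 library 1, 15 and 0 without month 2 library 2, 23 and 0 under quantile normalisation and 29 and 0 with equal library sums. The glycolytic genes had a median of 0.55 without month 4 library 2. The creatine system genes that rose and fell numbered 6 and 4 without month 4 library 2, 4 and 0 without month 2 library 1, 5 and 0 without month 2 library 2 and 6 and 0 with equal library sums. LDHB lost its call without month 2 library 1 (adjusted p = 0.269), without month 2 library 2 (adjusted p = 0.201), under quantile normalisation (adjusted p = 0.0714) and with equal library sums (adjusted p = 0.235). PFKL lost its call without month 2 library 1 (adjusted p = 0.205), without month 2 library 2 (adjusted p = 0.331), under quantile normalisation (adjusted p = 0.0584), with equal library sums (adjusted p = 0.364) and in a fit of all 8 fetal libraries (adjusted p = 0.0716). CKM lost its call without month 2 library 1 (adjusted p = 0.141), without month 2 library 2 (adjusted p = 0.141) and in a fit of all 8 fetal libraries (adjusted p = 0.0549).

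Of 47 genes of the citrate cycle and fatty acid oxidation, 32 rose and 1 fell, with a median log2 change of 0.59. LPL, lipoprotein lipase, which frees fatty acids from blood lipids, had 40.3 and 33.8 FPKM in month 4 muscle, against 2.53 and 2.38 FPKM in month 2 muscle (log2 change 3.29, SE 0.19, adjusted p = 4.51e-06). HADHB and ACADM, enzymes of beta-oxidation, had log2 changes of 1.85 and 1.65, SUCLA2 of the citrate cycle one of 2.07, and PDK2, which holds back pyruvate oxidation, one of 2.06. PERM1, a muscle regulator of oxidative metabolism, had 30.7 and 59.5 FPKM in month 4 muscle, against 1.90 and 3.01 FPKM in month 2 muscle (log2 change 3.52, SE 0.30, adjusted p = 3.65e-05). UCP2, a mitochondrial carrier, was the one that fell (27.6 and 45.1 FPKM in month 4 muscle, against 80.3 and 71.7 FPKM in month 2 muscle). Respiratory chain genes moved in both directions: of 68 nuclear-encoded genes 23 rose and 5 fell, with a median log2 change of 0.02. UQCRFS1, the Rieske protein of complex III, had 84.2 and 109 FPKM in month 4 muscle, against 16.7 and 14.03 FPKM in month 2 muscle (log2 change 2.40, SE 0.19, adjusted p = 2.56e-05). ATP5B, the catalytic subunit of ATP synthase, had 226 and 251 FPKM in month 4 muscle, against 59.2 and 57.2 FPKM in month 2 muscle (log2 change 1.85, SE 0.17, adjusted p = 4.64e-05), and NDUFS1 of complex I had a log2 change of 1.37. The 5 that fell were NDUFA2, NDUFA12, NDUFS5, COX6A1 and ATP5J, with log2 changes between -1.35 for COX6A1 and -0.82 for ATP5J. The respiratory chain genes that rose and fell numbered 22 and 20 without month 4 library 2, 11 and 1 without month 2 library 1, 13 and 1 without month 2 library 2, 35 and 3 with equal library sums and 14 and 6 under median ratio scaling. The respiratory chain genes had a median of 0.30 without month 4 library 1, -0.26 without month 4 library 2, 0.00444 without month 2 library 1, 0.0122 without month 2 library 2, 0.28 under quantile normalisation, 0.0361 with equal library sums, -0.00879 under median ratio scaling and 0.0423 in a fit of all 8 fetal libraries. The citrate cycle and fatty acid genes that rose and fell numbered 30 and 3 without month 4 library 2, 15 and 0 without month 2 library 1 and 13 and 1 without month 2 library 2. UCP2 lost its call without month 2 library 1 (adjusted p = 0.0617). NDUFA2 lost its call without month 2 library 1 (adjusted p = 0.110) and without month 2 library 2 (adjusted p = 0.0995). NDUFA12 lost its call without month 2 library 1 (adjusted p = 0.219), without month 2 library 2 (adjusted p = 0.0960), with equal library sums (adjusted p = 0.0952) and in a fit of all 8 fetal libraries (adjusted p = 0.0564). NDUFS5 lost its call without month 2 library 1 (adjusted p = 0.0795) and without month 2 library 2 (adjusted p = 0.134). ATP5J lost its call without month 2 library 1 (adjusted p = 0.141), without month 2 library 2 (adjusted p = 0.278) and with equal library sums (adjusted p = 0.0980).

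Most adipocyte and lipid-synthesis genes that were tested rose: of 18 tested, 17 rose and 0 fell, with a median log2 change of 1.78. The list has 24 members, and the rest were under the level filter. SCD, DGAT2, ADIPOQ and PLIN1 reached that filter through month 4 alone, so the filter shaped this count. With no level filter 6 rose and 0 fell of 24, with a median of 1.45. The summed level of the whole list was 448 and 662 FPKM in month 4 muscle, against 123 and 125 FPKM in month 2 muscle. SCD, stearoyl-CoA desaturase, had 43.8 and 30.8 FPKM in month 4 muscle, against 0.237 and 0.284 FPKM in month 2 muscle (log2 change 4.74, SE 0.23, adjusted p = 1.68e-06). DGAT2, the last enzyme of triglyceride synthesis, had 20.3 and 30.8 FPKM in month 4 muscle, against 0.292 and 0.221 FPKM in month 2 muscle (log2 change 4.21, SE 0.24, adjusted p = 4.45e-06). Both were nearly undetected in month 2 and present in both month 4 libraries. THRSP, a nuclear protein of lipid-making cells outside the list, had 20.3 and 49.96 FPKM in month 4 muscle, against 1.44 and 2.13 FPKM in month 2 muscle (log2 change 3.41, SE 0.35, adjusted p = 1.03e-04). ADIPOQ, adiponectin, a hormone of fat cells, had 5.70 and 7.31 FPKM in month 4 muscle, against 0.136 and 0 FPKM in month 2 muscle. PLIN1, the lipid droplet coat of fat cells, had 6.80 and 8.70 FPKM in month 4 muscle, against 0.483 and 0.898 FPKM in month 2 muscle. Both rose. CFD, adipsin, and FABP4, a fatty acid carrier, rose by 2.02 and 1.64 on the log2 scale. CEBPA, the factor of mature fat cells, did not pass (4.87 and 5.72 FPKM in month 4 muscle, against 3.97 and 3.49 FPKM in month 2 muscle), and LEP, leptin, was at 0 and 0 FPKM in month 4 muscle, against 0 and 0.397 FPKM in month 2 muscle. LPL, FABP4, SCD and DGAT2 are also used by muscle fibres, and what part fat cells had in the rise was not tested.

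Ribosomal protein genes fell together: of 55 tested, 1 rose and 52 fell, with a median log2 change of -1.69. Their summed level was 39879.6 and 41679 FPKM in month 4 muscle, against 116841 and 115051 FPKM in month 2 muscle, which is 9.48% and 8.87% of all FPKM in month 4 and 21.1% and 21.5% in month 2. RPL26 of the large subunit had 533 and 559 FPKM in month 4 muscle, against 2467 and 2369 FPKM in month 2 muscle (log2 change -2.31, SE 0.19, adjusted p = 7.02e-05). RPL6 had 227 and 268 FPKM in month 4 muscle, against 1179 and 915 FPKM in month 2 muscle (log2 change -2.23, SE 0.20, adjusted p = 1.09e-04). RPS20 of the small subunit had 1239 and 1272 FPKM in month 4 muscle, against 5242 and 5169.8 FPKM in month 2 muscle (log2 change -2.22, SE 0.21, adjusted p = 1.37e-04). RPS23 had 500.2 and 537 FPKM in month 4 muscle, against 1970.4 and 1932 FPKM in month 2 muscle (log2 change -2.07, SE 0.19, adjusted p = 1.21e-04). These proteins build the translating ribosome, and members of both subunits fell. RPL37 was the one that rose (286 and 335 FPKM in month 4 muscle, against 50.6 and 41.0 FPKM in month 2 muscle; log2 change 2.57), and RPL10A (507 and 419 FPKM in month 4 muscle, against 523 and 509 FPKM in month 2 muscle) and RPS12 (897 and 717 FPKM in month 4 muscle, against 822 and 936 FPKM in month 2 muscle) did not pass. Ribosomal protein genes have many near-identical pseudogene copies, so the level of any one of them is uncertain. The ribosomal protein genes that rose and fell numbered 1 and 31 without month 2 library 1 and 1 and 32 without month 2 library 2. The ribosomal protein genes had a median of -0.81 under quantile normalisation.

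Of 55 cell cycle genes tested, 1 rose and 17 fell and 37 did not pass, with a median log2 change of -0.49, and their summed level was 294 and 224 FPKM in month 4 muscle, against 369.8 and 349 FPKM in month 2 muscle. As a share of all FPKM this was 0.0700% and 0.0477% in month 4, against 0.0669% and 0.0651% in month 2, so the months overlapped on that scale. TK1, the thymidine kinase of S phase, had 3.04 and 2.03 FPKM in month 4 muscle, against 9.91 and 11.2 FPKM in month 2 muscle (log2 change -1.88, SE 0.22, adjusted p = 4.12e-04). CDC45 and GINS2 of the replication helicase had log2 changes of -1.48 and -1.32, MYBL2, a factor of cycling cells, one of -1.29, and AURKB and CDC20 of mitosis ones of -1.35 and -1.35. RRM1, a ribonucleotide reductase subunit, was the one that rose (7.78 and 6.14 FPKM in month 4 muscle, against 4.09 and 3.90 FPKM in month 2 muscle). CDKN1A, the p21 inhibitor that marks cell cycle exit in differentiating myoblasts, also fell, with 6.74 and 3.76 FPKM in month 4 muscle, against 26.04 and 27.3 FPKM in month 2 muscle (log2 change -2.35, SE 0.24, adjusted p = 1.81e-04), as did CDKN1C, the p57 inhibitor (119 and 145 FPKM in month 4 muscle, against 265 and 214 FPKM in month 2 muscle). Of 10 genes of CDK inhibitors and cell cycle exit, 2 rose and 3 fell, with a median log2 change of 0.18. The cell cycle genes that rose and fell numbered 4 and 14 without month 4 library 2, 0 and 4 without month 2 library 1, 0 and 4 without month 2 library 2, 1 and 27 under quantile normalisation, 3 and 8 with equal library sums and 1 and 8 in a fit of all 8 fetal libraries. The exit genes that rose and fell numbered 4 and 3 without month 4 library 1, 4 and 3 without month 4 library 2, 0 and 2 without month 2 library 1, 1 and 1 without month 2 library 2 and 5 and 3 with equal library sums. The exit genes had a median of -0.0230 without month 4 library 2. GINS2 lost its call without month 2 library 1 (adjusted p = 0.1001). MYBL2 lost its call without month 2 library 2 (adjusted p = 0.0821). AURKB lost its call without month 2 library 1 (adjusted p = 0.0528). CDC20 lost its call without month 2 library 2 (adjusted p = 0.0617) and in a fit of all 8 fetal libraries (adjusted p = 0.0797). RRM1 lost its call without month 4 library 1 (adjusted p = 0.0784), without month 2 library 1 (adjusted p = 0.219) and without month 2 library 2 (adjusted p = 0.276). CDKN1C lost its call without month 2 library 1 (adjusted p = 0.146) and without month 2 library 2 (adjusted p = 0.0528).

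Growth genes listed as imprinted, that is expressed from 1 parental copy in at least some species or tissues, mostly fell. Of 18 tested, 2 rose and 11 fell, with a median log2 change of -0.86. Whether each is imprinted in this tissue was not tested. DLK1, a membrane protein of growing tissue, had 1008 and 1118 FPKM in month 4 muscle, against 2459.7 and 2319.7 FPKM in month 2 muscle (log2 change -1.33, SE 0.20, adjusted p = 0.00207). MEST had 192 and 186 FPKM in month 4 muscle, against 476 and 402 FPKM in month 2 muscle (log2 change -1.37, SE 0.18, adjusted p = 9.27e-04). RTL1, from the same locus as DLK1, had 8.92 and 4.91 FPKM in month 4 muscle, against 27.3 and 23.2 FPKM in month 2 muscle (log2 change -1.94, SE 0.25, adjusted p = 6.56e-04). IGF2, the main fetal growth factor of this group, was abundant in both months and did not pass (2242 and 2415 FPKM in month 4 muscle, against 2515 and 2995 FPKM in month 2 muscle; adjusted p = 0.416). IGF2R, which clears IGF2, and GRB10, which dampens insulin signalling, were those that rose. IGF2R had 63.4 and 47.6 FPKM in month 4 muscle, against 25.6 and 23.4 FPKM in month 2 muscle. GRB10 had 15.2 and 13.7 FPKM in month 4 muscle, against 8.19 and 6.95 FPKM in month 2 muscle. Of the binding proteins, IGFBP5 had 314 and 177 FPKM in month 4 muscle, against 33.8 and 30.05 FPKM in month 2 muscle (log2 change 2.68, SE 0.25, adjusted p = 5.72e-05). IGFBP2 had 163 and 175 FPKM in month 4 muscle, against 416 and 455 FPKM in month 2 muscle (log2 change -1.52, SE 0.17, adjusted p = 4.13e-04), so they moved in opposite directions. The receptor IGF1R was low and did not pass (3.48 and 2.36 FPKM in month 4 muscle, against 1.88 and 1.71 FPKM in month 2 muscle). The imprinted genes that rose and fell numbered 1 and 4 without month 2 library 1 and 1 and 5 without month 2 library 2. The imprinted genes had a median of -0.40 under quantile normalisation. DLK1 lost its call without month 2 library 1 (adjusted p = 0.118), without month 2 library 2 (adjusted p = 0.105) and under quantile normalisation (adjusted p = 0.144). IGF2 passed under quantile normalisation as higher at month 4 (adjusted p = 0.0124). GRB10 lost its call without month 2 library 1 (adjusted p = 0.0662) and without month 2 library 2 (adjusted p = 0.149). IGF1R passed without month 4 library 2 as higher at month 4 (adjusted p = 0.0209).

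Signalling lists differed in how many members passed. Of 22 Notch pathway genes 5 rose and 3 fell, of 35 Wnt pathway genes 9 rose and 5 fell, and of 25 FGF and hedgehog genes 2 rose and 2 fell, near or under the background of 22.3% and 15.7%. Of 39 genes of the TGF-beta, BMP and myostatin pathways 18 rose and 0 fell, with a median log2 change of 0.50. Beside MSTN, TGFBR2, a TGF-beta receptor, and BMP6, a ligand, had log2 changes of 1.64 and 1.40. Of 19 glucocorticoid-responsive and atrophy genes 11 rose and 1 fell: KLF9 had 5.89 and 5.03 FPKM in month 4 muscle, against 0.698 and 0.670 FPKM in month 2 muscle (log2 change 1.77, SE 0.23, adjusted p = 2.52e-04), and TSC22D3, GLUL and SGK1 had log2 changes of 1.01, 1.07 and 1.09. Of 20 hypoxia-responsive genes 10 rose and 0 fell: VEGFA, the vessel growth factor, had 56.3 and 73.4 FPKM in month 4 muscle, against 20.4 and 18.8 FPKM in month 2 muscle (log2 change 1.50, SE 0.19, adjusted p = 2.15e-04). EPAS1, an oxygen-regulated factor, had 46.3 and 39.3 FPKM in month 4 muscle, against 14.6 and 13.7 FPKM in month 2 muscle (log2 change 1.36, SE 0.18, adjusted p = 2.53e-04). CRABP2, a retinoic acid carrier, had 37.8 and 24.8 FPKM in month 4 muscle, against 119 and 109.6 FPKM in month 2 muscle and fell, while RXRA, a retinoid X receptor, had 17.9 and 15.9 FPKM in month 4 muscle, against 3.92 and 5.43 FPKM in month 2 muscle and rose. Among limb positional genes 9 rose and 1 fell of 33 tested, with rises near the background and falls under it. The largest log2 change, 1.89, was that of HOXC10, a gene of the hind limb level (16.1 and 20.5 FPKM in month 4 muscle, against 3.24 and 4.01 FPKM in month 2 muscle). The piece of muscle taken at each month is not stated, and its part in HOX levels was not tested. The Notch genes that rose and fell numbered 3 and 3 without month 4 library 1, 9 and 4 without month 4 library 2, 0 and 1 without month 2 library 1, 1 and 1 without month 2 library 2, 2 and 3 under quantile normalisation, 9 and 1 with equal library sums and 4 and 6 under median ratio scaling. The Wnt genes that rose and fell numbered 18 and 4 without month 4 library 2, 5 and 1 without month 2 library 1, 4 and 1 without month 2 library 2 and 14 and 3 with equal library sums. The FGF and hedgehog genes that rose and fell numbered 8 and 2 without month 4 library 2, 0 and 1 without month 2 library 2 and 4 and 2 with equal library sums. The TGF-beta pathway genes that rose and fell numbered 7 and 0 without month 4 library 1, 29 and 0 without month 4 library 2, 5 and 0 without month 2 library 1, 4 and 0 without month 2 library 2, 11 and 1 under quantile normalisation and 11 and 1 under median ratio scaling. The TGF-beta pathway genes had a median of 0.28 without month 4 library 1. The glucocorticoid genes that rose and fell numbered 6 and 0 without month 2 library 1 and 5 and 0 without month 2 library 2. The hypoxia genes that rose and fell numbered 4 and 0 without month 2 library 2. The limb positional genes that rose and fell numbered 14 and 1 without month 4 library 2, 1 and 0 without month 2 library 1, 2 and 0 without month 2 library 2 and 5 and 2 under quantile normalisation. CRABP2 lost its call in a fit of all 8 fetal libraries (adjusted p = 0.149).

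Markers of vessels, nerve sheath and connective tissue were higher at month 4, in part through 1 library. Of 22 endothelial genes 11 rose and 0 fell: VWF, a clotting factor stored in endothelium, had 45.5 and 24.4 FPKM in month 4 muscle, against 7.59 and 7.25 FPKM in month 2 muscle (log2 change 1.87, SE 0.26, adjusted p = 4.19e-04). PECAM1, a junction protein, had 51.3 and 43.4 FPKM in month 4 muscle, against 19.6 and 17.7 FPKM in month 2 muscle (log2 change 1.13, SE 0.18, adjusted p = 5.96e-04). Of 16 pericyte and smooth muscle genes 8 rose and 0 fell, with a median log2 change of 0.98, against 0.34 without month 4 library 1. RGS5, a pericyte gene, had 41.1 and 18.6 FPKM in month 4 muscle, against 5.30 and 5.92 FPKM in month 2 muscle and ABCC9, a potassium channel subunit of pericytes, had 9.72 and 5.63 FPKM in month 4 muscle, against 0.948 and 0.670 FPKM in month 2 muscle, and both rose. MYH11 had 63.2 and 6.57 FPKM in month 4 muscle, against 1.97 and 1.76 FPKM in month 2 muscle and rose, whereas ACTG2 (205 and 9.24 FPKM in month 4 muscle, against 7.79 and 6.81 FPKM in month 2 muscle) and CNN1, calponin (53.4 and 3.60 FPKM in month 4 muscle, against 2.56 and 2.93 FPKM in month 2 muscle), were high in month 4 library 1 alone and did not pass. Of 17 Schwann cell genes 12 rose and 1 fell: PMP22, a protein of peripheral myelin, had 278 and 124 FPKM in month 4 muscle, against 51.6 and 49.5 FPKM in month 2 muscle (log2 change 1.69, SE 0.31, adjusted p = 0.00160), so that both month 4 libraries exceeded month 2, library 1 most. The gene that fell was ERBB3. Of 41 matrix genes 16 rose and 1 fell, against 12 and 8 without month 4 library 1: COL3A1 had 3133 and 1341 FPKM in month 4 muscle, against 763 and 719 FPKM in month 2 muscle. ELN had 761 and 39.5 FPKM in month 4 muscle, against 7.92 and 8.48 FPKM in month 2 muscle (log2 change 4.09, SE 0.96, adjusted p = 0.00755). The keratins KRT5 (22.4 and 0.0549 FPKM in month 4 muscle, against 0.187 and 0.138 FPKM in month 2 muscle) and KRT14 (23.1 and 0 FPKM in month 4 muscle, against 0 and 0 FPKM in month 2 muscle) exceeded 1 FPKM in month 4 library 1 only. What part the tissue mix of that library had in these rises was not tested. The endothelial genes that rose and fell numbered 3 and 0 without month 2 library 1 and 2 and 0 without month 2 library 2. The smooth muscle genes that rose and fell numbered 6 and 2 without month 4 library 1, 13 and 1 without month 4 library 2, 5 and 0 without month 2 library 1 and 5 and 0 without month 2 library 2. The smooth muscle genes had a median of 0.34 without month 4 library 1 and 1.81 without month 4 library 2. The Schwann cell genes that rose and fell numbered 6 and 1 without month 2 library 1 and 6 and 1 without month 2 library 2. The matrix genes that rose and fell numbered 12 and 8 without month 4 library 1, 29 and 1 without month 4 library 2, 4 and 0 without month 2 library 1, 4 and 0 without month 2 library 2, 9 and 4 under median ratio scaling and 7 and 0 in a fit of all 8 fetal libraries. MYH11 lost its call under quantile normalisation (adjusted p = 0.0504). MYH11 had a log2 change of 1.34 without month 4 library 1 and 4.24 without month 4 library 2. ACTG2 passed without month 4 library 2 as higher at month 4 (adjusted p = 1.35e-05) and with equal library sums as higher at month 4 (adjusted p = 0.0302). CNN1 passed without month 4 library 2 as higher at month 4 (adjusted p = 3.74e-05) and with equal library sums as higher at month 4 (adjusted p = 0.0296). COL3A1 lost its call without month 2 library 1 (adjusted p = 0.0899), without month 2 library 2 (adjusted p = 0.117) and in a fit of all 8 fetal libraries (adjusted p = 0.214). COL3A1 had a log2 change of 0.79 without month 4 library 1. ELN had a log2 change of 2.07 without month 4 library 1. KRT5 passed without month 4 library 2 as higher at month 4 (adjusted p = 3.05e-05). KRT14 passed without month 4 library 2 as higher at month 4 (adjusted p = 2.79e-05).

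Plasma protein genes and most macrophage genes that passed fell. Of 8 genes of liver-type plasma proteins tested 0 rose and 7 fell, with a median log2 change of -3.04. The list has 15 members, and the rest were under the level filter. Some, such as APOA2 and TTR, reached that filter through month 2 alone, so the filter shaped this count. With no level filter 0 rose and 1 fell of 15, with a median of -1.28. APOA2, an apolipoprotein, had 0.636 and 0 FPKM in month 4 muscle, against 23.4 and 19.3 FPKM in month 2 muscle (log2 change -4.28, SE 0.27, adjusted p = 1.01e-05). ALB, albumin, had 4.09 and 0.0809 FPKM in month 4 muscle, against 32.1 and 24.99 FPKM in month 2 muscle (log2 change -3.81, SE 0.54, adjusted p = 8.86e-04). TTR, transthyretin, had 1.76 and 0 FPKM in month 4 muscle, against 16.8 and 10.8 FPKM in month 2 muscle (log2 change -3.29, SE 0.41, adjusted p = 4.50e-04). These transcripts were clearly present in both month 2 libraries, and the liver marker AFP, alpha-fetoprotein, was at 0.0739 and 0 FPKM in month 4 and 0.256 and 0.390 FPKM in month 2. Of 19 macrophage genes 3 rose and 8 fell: the complement genes C1QA, C1QB and C1QC had log2 changes of -1.73, -1.58 and -1.38, with C1QA at 13.9 and 15.1 FPKM in month 4 muscle, against 45.6 and 44.0 FPKM in month 2 muscle, whereas LAPTM5, CD74 and LYZ rose. HBZ, an embryonic alpha-type globin, had 4.67 and 10.05 FPKM in month 4 muscle, against 62.7 and 48.0 FPKM in month 2 muscle (log2 change -2.98, SE 0.29, adjusted p = 1.29e-04). HBE1, the epsilon globin, had 2.67 and 3.39 FPKM in month 4 muscle, against 7.34 and 8.52 FPKM in month 2 muscle (log2 change -1.32, SE 0.21, adjusted p = 0.00270). HBB, the adult beta globin, had 9.70 and 6.29 FPKM in month 4 muscle and was listed at 0 in both month 2 libraries (adjusted p = 4.12e-05). A listed 0 need not mean absence, since a ribosomal protein gene was also listed at 0 in some libraries. The other alpha and gamma globin genes were not analysed here. The macrophage genes that rose and fell numbered 2 and 4 without month 2 library 1 and 1 and 5 without month 2 library 2. CD74 lost its call without month 2 library 2 (adjusted p = 0.0509). LYZ lost its call without month 4 library 1 (adjusted p = 0.0810), without month 2 library 1 (adjusted p = 0.0922) and without month 2 library 2 (adjusted p = 0.248). LYZ had a log2 change of 0.51 without month 4 library 1. HBE1 lost its call without month 2 library 2 (adjusted p = 0.0904).

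**Figure D3:**
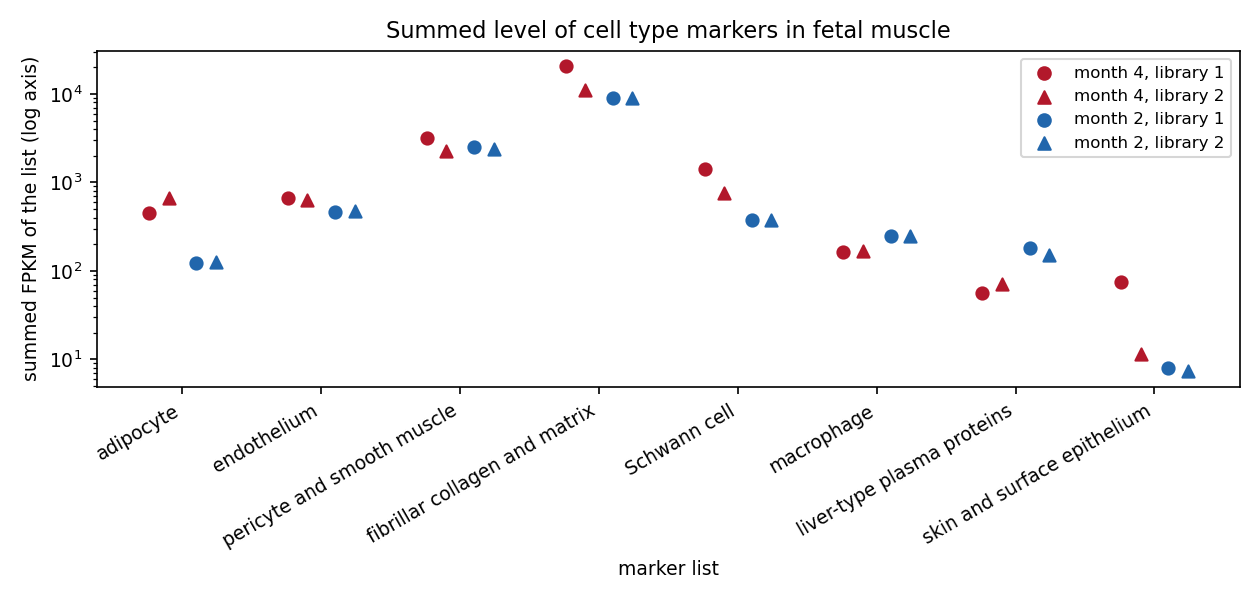
Summed FPKM on a log axis of marker lists in each library, month 4 in red and month 2 in blue, circles for library 1 and triangles for library 2. The pericyte and smooth muscle list includes DES, also a gene of the sarcomere scaffold, which makes up much of that sum in every library. Adipocyte markers are higher in both month 4 libraries (448 and 662 FPKM) than in month 2 (123 and 125 FPKM), and skin markers highest in month 4 library 1 (75.5 FPKM).

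Some of the largest changes were in genes better known from other tissues. CPLX1, complexin, which clamps vesicle release in neurons, had 0.0558 and 0.165 FPKM in month 4 muscle, against 24.7 and 23.7 FPKM in month 2 muscle (log2 change -4.67, SE 0.21, adjusted p = 1.68e-06). ZAP70, a kinase of T cell receptor signalling, had 4.43 and 4.34 FPKM in month 4 muscle, against 45.9 and 43.5 FPKM in month 2 muscle (log2 change -3.25, SE 0.18, adjusted p = 5.26e-06), although the T cell receptor genes CD3D, CD3E and CD3G were at most 0.310 FPKM in any of the 4 libraries. OCA2, a melanosome transporter, had 0.291 and 0.268 FPKM in month 4 muscle, against 8.10 and 7.21 FPKM in month 2 muscle (log2 change -2.92, SE 0.22, adjusted p = 3.88e-05). These genes fell with month 2 libraries close to each other. PEBP4, of the phosphatidylethanolamine-binding family, had 67.4 and 118 FPKM in month 4 muscle, against 3.92 and 4.17 FPKM in month 2 muscle (log2 change 3.99, SE 0.25, adjusted p = 6.82e-06). FEM1A, a ubiquitin ligase receptor, had 37.9 and 55.1 FPKM in month 4 muscle, against 3.14 and 2.36 FPKM in month 2 muscle (log2 change 3.48, SE 0.23, adjusted p = 8.29e-06). Both rose.

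SIRT6 itself had 7.70 and 7.26 FPKM in month 4 muscle, against 10.7 and 15.3 FPKM in month 2 muscle (log2 change -0.87, SE 0.21, adjusted p = 0.0270), and fell, with no overlap and its month 2 libraries apart. Of 7 sirtuins 2 fell, SIRT6 and SIRT7 (3.02 and 2.79 FPKM in month 4 muscle, against 5.36 and 5.32 FPKM in month 2 muscle), and none rose. SIRT6 lost its call without month 2 library 1 (adjusted p = 0.0752), without month 2 library 2 (adjusted p = 0.388), with equal library sums (adjusted p = 0.158) and in a fit of all 8 fetal libraries (adjusted p = 0.0800). SIRT6 had a log2 change of -0.59 without month 2 library 2. SIRT7 lost its call without month 2 library 1 (adjusted p = 0.230), without month 2 library 2 (adjusted p = 0.243) and with equal library sums (adjusted p = 0.159).

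The change in muscle was set against that in brain over the same months, in one fit of the 8 fetal libraries with a test of the difference between the tissues. Of 13742 genes tested, 908 (6.61%) had a higher and 1015 (7.39%) a lower change in muscle, 14% in all. In a separate fit of the brain libraries, 526 of 13114 genes (4.01%) changed between the months, against 37.9% in the muscle fit. These shares come from unlike tests and filters and depend on the spread between libraries, so they do not measure sizes of change. Among sarcomere genes, MYH1, MYH2 and NRAP had differences of 9.12, 7.25 and 5.46 and MYL4 and MYBPH of -6.58 and -4.33. The highest brain value of any of these genes was 1.10 FPKM. Their difference therefore mostly repeats the muscle change, and brain could not test whether that change was particular to muscle. A difference that did not pass is not shown to be absent. The change in ribosomal proteins was lower in muscle than in brain for 38 of 55 tested members: RPL26 fell in muscle, while in brain it had 374 and 519 FPKM at month 4, against 526 and 482 FPKM at month 2 (difference -1.95, adjusted p = 0.00606). RPL37 had 158 and 224 FPKM in month 4 brain, against 17.6 and 3.86 FPKM in month 2 brain, so it was higher at month 4 in both tissues, and the difference did not pass (adjusted p = 0.142). Of 50 cell cycle genes tested 1 had a higher and 2 a lower change in muscle, and of 18 imprinted genes 1 and 8.

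Muscle and brain values lay in opposite directions for LPL, which in brain had 22.6 and 17.1 FPKM at month 4, against 41.6 and 73.4 FPKM at month 2 (difference 4.90, adjusted p = 2.36e-04), and MN1, a transcriptional coactivator, which had 13.4 and 12.5 FPKM in month 4 muscle, against 4.67 and 3.71 FPKM in month 2 muscle, and 27.2 and 25.6 FPKM in month 4 brain, against 85.0 and 84.9 FPKM in month 2 brain (difference 3.08, adjusted p = 2.93e-04). C1QA had 6.48 and 9.70 FPKM in month 4 brain, against 3.07 and 1.92 FPKM in month 2 brain, the reverse of muscle (difference -2.94, adjusted p = 0.00114), and 10 of 18 macrophage genes had a lower change in muscle. CDKN1A had 8.67 and 12.7 FPKM in month 4 brain, against 1.99 and 1.93 FPKM in month 2 brain (difference -4.15, adjusted p = 3.64e-04). NFIX rose in muscle and had 102 and 69.5 FPKM in month 4 brain, against 132 and 159 FPKM in month 2 brain (difference 3.18, adjusted p = 9.55e-04). Among the genes with the smallest p for the difference, SCD had 61.7 and 35.5 FPKM in month 4 brain, against 43.8 and 62.0 FPKM in month 2 brain (difference 5.05, adjusted p = 3.01e-04). RNF207, a ring finger protein known from heart, had 2.12 and 2.34 FPKM in month 4 muscle, against 13.95 and 14.4 FPKM in month 2 muscle, and 3.13 and 2.67 FPKM in month 4 brain, against 0.148 and 0.179 FPKM in month 2 brain (difference -3.97, adjusted p = 1.06e-04). CPLX1 had 32.7 and 52.0 FPKM in month 4 brain, against 20.4 and 29.6 FPKM in month 2 brain (difference -5.23, adjusted p = 1.10e-04), so its muscle fall was not shared. IGSF1 and TP53I3 had differences of -3.90 and -3.45. The difference was called in 402 and 397 genes without month 2 muscle library 1 and 2, in 932 without month 4 muscle library 1 and in 633 without month 4 brain library 2.

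**Figure D4:**
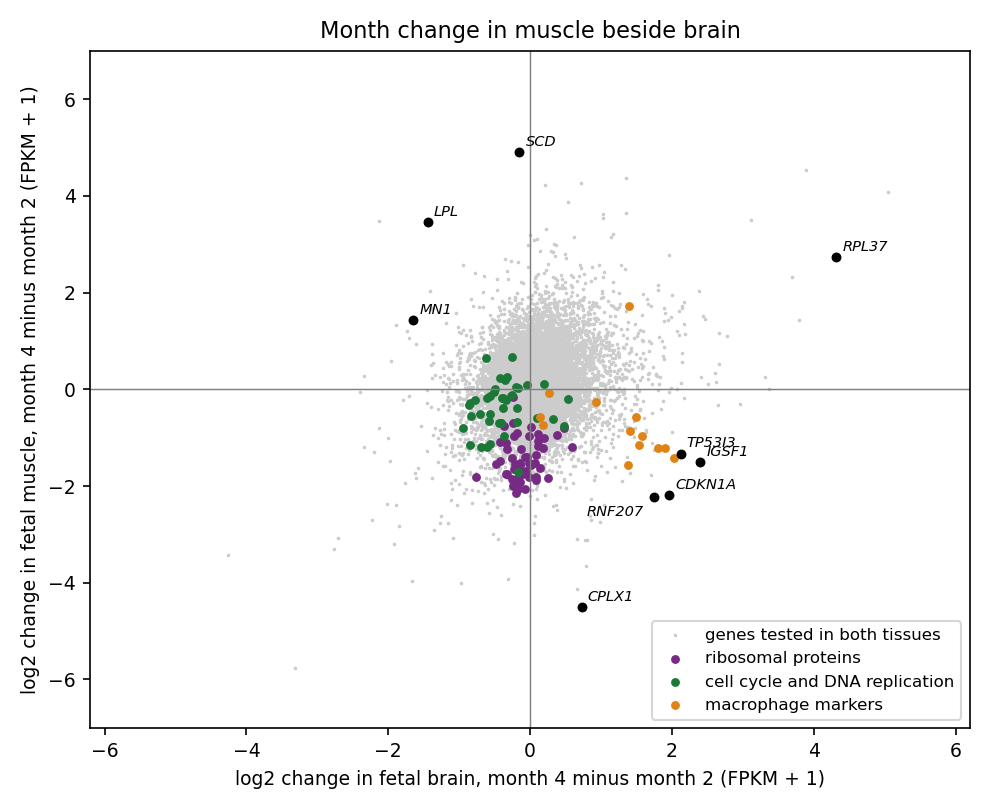
Log2 change at month 4 against month 2 on the log2(FPKM + 1) scale, before subtraction of the median, in fetal muscle (vertical) against fetal brain (horizontal), 1 point a gene tested in both. Ribosomal proteins lie low in muscle and near 0 in brain, macrophage markers mostly low in muscle and high in brain, and RPL37 high in both.

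Newborn muscle was set beside the fetal stages as levels only, since its table was normalised separately, and no test crosses the tables. Newborn values are the mean of 2 libraries of an animal, in the order KO2, KO3 and WT2, WT3. MYH3 had 2438 and 2251 FPKM at month 2, 993 and 696 FPKM at month 4, and in newborns 468 and 306 FPKM in SIRT6-/- and 14.3 and 4.16 FPKM in wild type. MYH1 had 0.187 and 0.196 FPKM at month 2, 516 and 1082 FPKM at month 4, and in newborns 35.1 and 37.3 FPKM in SIRT6-/- and 1224 and 571 FPKM in wild type. Wild-type newborns thus lay below the month 4 libraries for MYH3 and around them for MYH1, while SIRT6-/- newborns lay above wild type for MYH3 and below it for MYH1. MYL4 had 324 and 272 FPKM at month 2, 3.23 and 1.96 FPKM at month 4, and in newborns 2.28 and 5.53 FPKM in SIRT6-/- and 1.94 and 1.48 FPKM in wild type, so it was low at every point after month 2. MYL2 had 154 and 154 FPKM at month 2, 2421 and 2131 FPKM at month 4, and in newborns 3324 and 1224 FPKM in SIRT6-/- and 5873 and 6118 FPKM in wild type. TMEM8C had 70.8 and 71.8 FPKM at month 2, 14.8 and 26.002 FPKM at month 4, and in newborns 4.57 and 12.5 FPKM in SIRT6-/- and 3.03 and 1.61 FPKM in wild type. For MYL2 and TMEM8C the wild-type newborns lay beyond month 4 in the direction of the fetal change. DLK1 had 2459.7 and 2319.7 FPKM at month 2, 1008 and 1118 FPKM at month 4, and in newborns 764 and 574 FPKM in SIRT6-/- and 256 and 147 FPKM in wild type, and its wild-type newborns again lay beyond month 4. MSTN had 0.397 and 1.10 FPKM at month 2, 13.7 and 11.8 FPKM at month 4, and in newborns 3.18 and 10.4 FPKM in SIRT6-/- and 6.86 and 0.965 FPKM in wild type, and all 4 newborns lay below both month 4 libraries. MYBPH had 51.8 and 60.9 FPKM at month 2, 1.72 and 2.79 FPKM at month 4, and in newborns 16.3 and 59.9 FPKM in SIRT6-/- and 43.1 and 20.7 FPKM in wild type, so that all 4 newborns lay above both month 4 libraries.

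**Figure D5:**
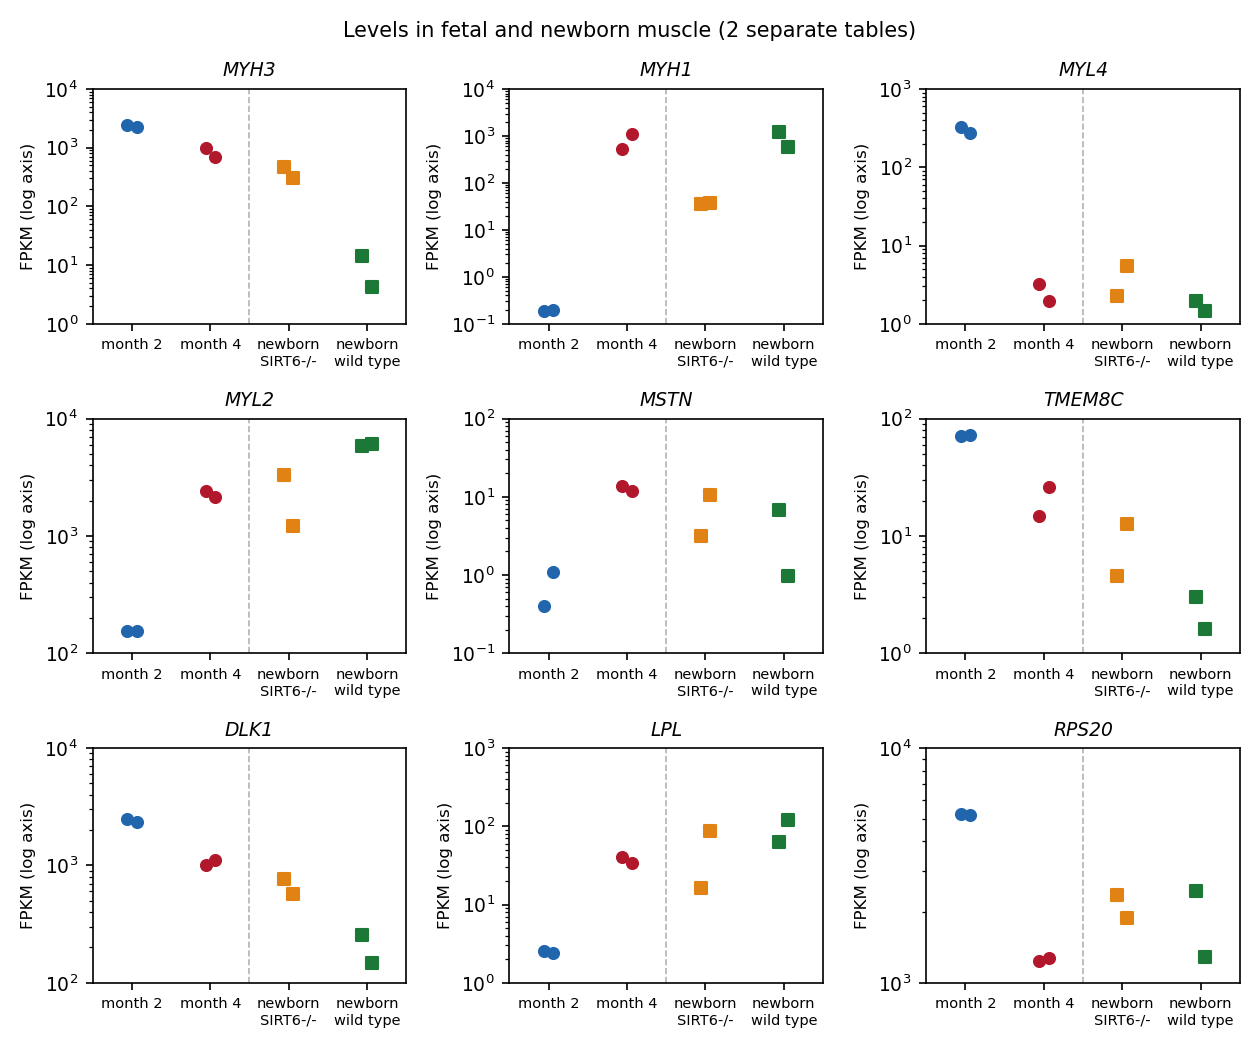
FPKM on a log axis of genes in month 2 and month 4 fetal muscle (circles, 1 per library) and in newborn SIRT6-/- and wild-type muscle (squares, 1 per animal, mean of 2 libraries); the dashed line parts 2 tables normalised separately. MYH3, TMEM8C and DLK1 are lowest in wild-type newborns, and MYL4 is low from month 4 on.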

How the data were processed

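Gene expression was taken from 4 fetal muscle libraries of RNA sequencing, 2 of gestation month 4 and 2 of month 2, grouped by their labels. The values are FPKM per gene as deposited by the authors. Per the submitters' processing notes, Cufflinks 2.0.2, HISAT 0.1.6 and CASAVA were used. No source used here gives the genome build or annotation. FPKM keeps no read counts and its low values shared no common step, so depth and counting error are unknown, and a pseudocount understates the change of low genes.

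From these values log2(FPKM + 1) was computed for genes with a mean of 1 FPKM or more over the 4 libraries, and the months were compared with limma 3.58.1 in R 4.3.3 (eBayes with trend) with Benjamini-Hochberg adjustment over all genes tested, at an adjusted p of 0.05. The difference between muscle and brain was a contrast in a fit of 8 fetal libraries. Newborn muscle comes from another deposited FPKM table and entered no test. Both fits were tried on simulated data, where each missed some of the smaller changes put in, and the test of the difference missed most of them. An exact permutation test of 2 against 2 libraries cannot go below p = 0.33.

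The gene lists and the genes of interest were chosen with earlier results of these data known. Of the 28141 genes deposited, 11294 carry only a LOC identifier. The current symbol of the same gene ID was given to 721 of these, MYH1, MYH2, MYH4, TNNT2 and ZAP70 among them. The 10573 that kept a LOC identifier were tested but could not be named. Named genes are those with a symbol that passed with the largest rise (15) and the largest fall (15), no overlap and at least 5 FPKM on average in the month where they were higher. To these were added isoform families and up to 6 members of each list with the smallest p, its defining markers, IGF2 and SIRT6, and 6 genes in each direction of the muscle-brain difference. Members that went against their list, the members named as not passing outside isoform families, and TMEM8C, MYMX, PFKM, NEB, TTN, RAPSN, PVALB, ACTG2, CNN1, the CD3 genes and the genes compared in newborns were named after their values were seen. Some genes that the rule names are not reported here. Lists are described by counts and medians with no set test, and recomputing their medians under the alternatives was chosen after seeing the data. The alternatives were another pseudocount, other level filters, 3 scalings, a fit of all fetal libraries, a replicate block and leaving out each library.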

Additional observations from a re-analysis of the deposited data

Results flagged for a closer look

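Month changes differed between fetal muscle and fetal brain in 1923 genes by the test of the difference. The genes with the smallest p, among those that also changed in muscle, had a log2 difference (muscle change minus brain change) of 9.12 for MYH1, 7.25 for MYH2, 5.46 for NRAP, 5.05 for SCD, 4.90 for LPL and 3.08 for MN1 where muscle was higher. It was -6.58 for MYL4, -5.23 for CPLX1, -4.33 for MYBPH, -3.97 for RNF207, -3.90 for IGSF1 and -3.45 for TP53I3 where muscle was lower. MYH1, MYH2, NRAP, MYL4 and MYBPH were at most 1.10 FPKM in brain, so their difference mostly repeats the muscle change. Before subtraction of the median, that change was 5.50 for NRAP and -6.40 for MYL4. For these genes brain could not test whether the change was particular to muscle. IGSF1, a membrane glycoprotein of the immunoglobulin family, had 7.51 and 7.11 FPKM in month 4 muscle, against 23.7 and 21.5 FPKM in month 2 muscle, and 5.66 and 8.53 FPKM in month 4 brain, against 0.709 and 0.343 FPKM in month 2 brain. TP53I3, a p53 target, had 5.28 and 4.86 FPKM in month 4 muscle, against 14.7 and 13.8 FPKM in month 2 muscle, and 10.3 and 14.5 FPKM in month 4 brain, against 1.90 and 2.1999 FPKM in month 2 brain. Groups of 2 libraries are too small for a test of single outlying libraries.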

How the results depend on the processing

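Pseudocount, scaling, the fit of 8 libraries and the block kept the number of genes called in muscle within 1.5 times of 4687. With no level filter 574 were called, 260 that rose and 314 that fell, and 6.70% of the main calls were kept. The cause was not tested. Rises and falls then numbered 1 and 1 for ribosomal proteins, 1 and 0 for coupling genes and 6 and 0 for scaffold genes. They numbered 6 and 0 for adipocyte genes and 0 and 0 for imprinted and cell cycle genes. MYBPC2 (adjusted p = 0.0762) and MYH4 (adjusted p = 0.179) lost their calls, while MYH1, MYH2 and NRAP kept theirs. With a filter at a mean of 5 FPKM 3012 were called, 1577 of which rose. With each library's FPKM brought to an equal sum 1098 fell. Leaving out a library gave 1455 to 6713 called genes, of which 785 to 4430 rose and 667 to 2283 fell, lowest without a month 2 library, which leaves that month with 1 library assumed to vary like the other month. The muscle and brain difference was called in 967 genes with no level filter and in 397 to 2228 with a library left out. With library number as a replicate block 5611 genes were called in muscle, 3435 that rose and 2176 that fell, and 2121 in the difference. Same-numbered libraries deviated together with a correlation of 0.078 in 2 pairs, so the numbers are not shown to pair them. Among the lists described, the median log2 change relative to the median gene changed sign in 7 of 34. The median of fast-fibre genes was -0.0778 to 0.794 with a library left out. The median of neuromuscular junction genes was 0.0240 with no level filter. The median of respiratory chain genes was -0.00706 with a pseudocount of 0.1, -0.00879 under median ratio scaling and -0.263 to 0.304 with a library left out. The median of CDK inhibitor and exit genes was -0.0230 to 0.249 with a library left out. The median of skin markers was -0.134 to 2.22 with a library left out. The median of FGF and hedgehog genes was 0.0578 with no level filter and -0.168 to 0.0923 with a library left out. The median of sirtuins was 0.155 with no level filter, 0.103 with a filter at a mean of 5 FPKM, 0.0423 under quantile normalisation, 7.07e-04 with equal library sums, 0.00902 in a fit of all 8 fetal libraries and -0.203 to 0.195 with a library left out. The medians of the other lists among the 34 kept their sign under every alternative run. Lists used for single genes only are not among the 34, and some of these also changed sign. In the main fit the median was 0.102 for the IGF axis, -0.0118 for erythroid genes and 0.0688 for thyroid and vitamin A genes. It was -0.0166 for the IGF axis without month 2 library 1. Without month 4 library 1 it was 0.157 for erythroid genes and -0.0304 for thyroid and vitamin A genes. Some genes that did not pass changed sign, and of these DES (adjusted p = 0.0241), IGF2 (adjusted p = 0.0124), TNNI1 (adjusted p = 0.0224) and TPM1 (adjusted p = 0.0418) then passed as higher at month 4 under quantile normalisation. Before subtraction of the median, their log2 change was, with equal library sums 0.011 for CHRNG, 0.054 for IGF2, 0.16 for MYL1, 0.13 for RPL10A, 0.16 for RPS12, 0.27 for TNNC2, 0.086 for TNNT3 and 0.11 for TPM1, and under quantile normalisation 0.60 for DES, 0.68 for IGF2, 0.46 for RPS12, 0.22 for TNNC2, 0.59 for TNNI1, 0.087 for TNNI2, 0.39 for TNNT3 and 0.67 for TPM1, and under median ratio scaling -0.016 for MYOD1. With a library left out it ranged from -0.14 to 4.33 for KRT5, -0.20 to 1.07 for MYH10, -0.50 to 0.23 for MYL1, -0.20 to 0.53 for MYOD1, -0.29 to 0.033 for RPS12, -0.44 to 0.40 for TNNC2, -0.80 to 0.10 for TNNI2, -0.66 to 0.25 for TNNT3 and -0.57 to 0.21 for TPM1. The cause was not tested. Over all named genes and alternatives, 2081 of 2392 values kept their direction and side of the threshold, 252 lost the call, 32 gained it and 27 changed direction. Read depth is unknown from FPKM, so what it limits could not be measured.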
